A study of Mus musculus with 4 samples.

Results

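The genes described here are those of the TGF-beta and BMP pathway, taken by name: the array probes whose gene symbol begins with Tgfb (followed by a number, i or r), Bmp, Gdf or Smad (followed by a number), Bmpr, Inhb or Acvr, together with Id1 to Id4, Inha, Amh, Nodal, Lefty1, Lefty2, Smurf1, Smurf2, Ski, Skil, Tgif1 and Tgif2. The rule found 99 probes for 67 genes among the 55681 probes and 34821 gene names of the array, and it used no measured value. Of the 67 genes, 60 could be tested. In neither group were 4 others well above background on both arrays, and 3 had a spot that the scanner software marked as non-uniform on 1 array.

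RNA from 2 kinds of mouse pancreatic sample was hybridised to 4 single-colour Agilent arrays, 2 for each kind. All tissue came from male Swiss albino mice of 10 to 12 weeks, pooled 2 to 4 at a time, with no transgene or mutant allele named. The islet-like clusters had been grown from fibroblast-like cells that attached when collagenase digests of pancreas were plated, which the labels call MSC-like, passaged cells resembling mesenchymal stromal cells. These cells were moved to low-adherence dishes in serum-free medium with albumin and insulin, transferrin and selenium; 0.3 mM taurine was added on day 3, nicotinamide (100 mM), taurine (3 mM) and GLP-1 on day 7, and clusters were collected on day 10. The islets were flushed from the same kind of plated digest; the titles put them at 48 h of culture and the descriptions at fresh isolation, which was not settled here. The attached cells before induction were not among the samples, so the comparison is of clusters with islets and not of a culture before and after induction. Nothing in the labels says that arrays of 1 group hold separate pools of mice, and a p-value here therefore covers array-to-array spread only, which can be technical.

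TGF-beta family ligands are secreted dimers that bring type II and type I serine/threonine kinase receptors together at the cell surface. TGF-betas, activins and Nodal act mainly through SMAD2 and SMAD3, and BMPs and several GDFs mainly through SMAD1, SMAD5 and SMAD9, all with the shared partner SMAD4. The inhibitory SMADs and the ID genes are among the direct targets of these SMADs, and in the pancreas the family is known for its part in branching and endocrine differentiation in the embryo, in control of beta cells by activins, and in fibrosis driven by mesenchymal cells.

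Promoter sequence is shown for Smad6, Id2, Id3 and Id4, 4 members that rose in the clusters and whose transcription the pathway is known to control; none is shown for Smad7, which also rose. Each sequence below is 254 bases long, from 250 bases before the transcript start to 4 bases past it, read 5′ to 3′ on the gene's strand from the RefSeq table of promoters on GRCm38.p6. Capitals mark 2 motifs associated with SMAD binding, GTCTAGAC and GGCGCC, both of which read the same on either strand. The Smad6 window is chr9:64022056-64022309 on the minus strand, the Id2 window chr12:25096089-25096342 on the minus strand, the Id3 window chr4:136143572-136143825 on the plus strand and the Id4 window chr13:48260866-48261119 on the plus strand.
Smad6: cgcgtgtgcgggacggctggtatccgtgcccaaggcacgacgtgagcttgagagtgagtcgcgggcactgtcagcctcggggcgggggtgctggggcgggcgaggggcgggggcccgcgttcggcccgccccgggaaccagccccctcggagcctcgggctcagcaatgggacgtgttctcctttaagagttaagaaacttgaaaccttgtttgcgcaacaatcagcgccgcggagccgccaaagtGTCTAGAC
Id2: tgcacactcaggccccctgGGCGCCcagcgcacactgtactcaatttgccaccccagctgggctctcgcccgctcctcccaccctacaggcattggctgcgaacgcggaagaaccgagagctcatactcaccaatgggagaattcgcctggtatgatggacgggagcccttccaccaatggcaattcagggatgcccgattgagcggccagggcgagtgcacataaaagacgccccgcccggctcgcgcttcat
Id3: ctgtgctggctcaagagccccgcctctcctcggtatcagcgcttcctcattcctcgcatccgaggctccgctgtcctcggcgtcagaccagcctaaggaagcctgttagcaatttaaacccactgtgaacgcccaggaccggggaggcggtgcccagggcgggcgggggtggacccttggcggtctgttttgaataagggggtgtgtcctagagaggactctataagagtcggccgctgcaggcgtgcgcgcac
Id4: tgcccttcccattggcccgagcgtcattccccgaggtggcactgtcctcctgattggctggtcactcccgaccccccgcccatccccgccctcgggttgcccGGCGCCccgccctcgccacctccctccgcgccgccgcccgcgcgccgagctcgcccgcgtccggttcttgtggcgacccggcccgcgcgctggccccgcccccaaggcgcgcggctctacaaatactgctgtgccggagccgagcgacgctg

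GTCTAGAC was found in the Smad6 window, where it spans the transcript start, and in no other of the 47 members with an entry in the table, against 0.213% of all 32851 windows of 300 bases searched. GGCGCC was found in the windows of 15 of the 47 members, Id2 and Id4 among them, against 11.9% of all windows. The CAGA box AGCCAGACA, searched on both strands, was found in 0 of the 47, against 0.387% of all windows. The Id3 window holds none of these motifs. Members were counted as genes with a match in any of their windows, whereas the percentages are of single windows. The counts and percentages are therefore unlike measures, and whether members hold a motif more often was not tested. These are matches of letters, and no binding was measured.

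Each level below is a log2 value relative to the array's own 75th percentile, so a level of 0 is the signal of the probe at that percentile and a difference of 1 is a 2-fold difference in signal. Levels of the same probe can be compared between arrays, but not levels of different genes. A gene was called higher or lower in the clusters when its adjusted p from limma over 24596 tested genes was below 0.05, and "rose" and "fell" below are such calls. A gene well above background on an array is called detected there, as the scanner software marked it. Where a gene was well above background on neither array of a group, its fold is given as a lower bound. On each such array the bound used the gene's own signal or the lowest signal measured well above background, whichever was higher. For Bmp7 and Gdf7 the own signals were the higher, so their bounds are simply the fitted folds. These bounds hold for the scanner's processed signal only. With normexp background correction, which adds an offset of 50 to every signal, the folds of all 7 members given as lower bounds were below their bounds, and 15 of the 38 called members had a fold smaller by over 1.5 times. Of the 60 tested members, 38 were called, 24 higher and 14 lower, where the same test called 55.0% of all genes, 26.6% higher and 28.3% lower. The share of members called is therefore near that of the array as a whole. Their median log2 fold change was 0.23 (all genes -0.10) and their median absolute log2 fold change was 1.20 (all genes 0.78). In 49 of the 60 members the cluster arrays did not overlap the islet arrays, which held for 79.9% of all genes. The median SD between arrays of a group over these 60 genes was 0.16 for clusters and 0.15 for islets.

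Between 59.7% and 63.6% of spots were well above background on each array, no spot was saturated, and all 4 arrays were on 1 slide. Cluster array 1 had 510 non-uniform spots, where the other 3 had 2 to 26. Most marker genes of pancreatic epithelium were lower in the clusters. All 6 epithelial markers tested were lower there, with Epcam, Cdh1, Krt8 and Krt18 not well above background, and 11 of 14 endocrine markers were lower, with Gcg, Iapp, Ppy, Slc2a2 and Pdx1 not well above background. Of the other 3 endocrine markers Pcsk1 was higher (log2 0.84, adjusted p 0.047), and Nkx6-1 (-0.16) and Mafa (0.40) were not called. The titles call the clusters insulin producing; both cluster arrays detected Ins1 and Ins2, with log2 fold changes of -6.93 and -5.41. All 11 mesenchymal markers were higher, with a summed linear level of 1472 to 1762 in clusters against 48.2 to 57.1 in islets. All 10 endothelial markers were lower (3.02 to 3.69 against 20.9 to 21.7, with 7 of them not well above background in clusters), as were all 9 acinar markers (1.25 to 1.34 against 2688 to 4203). Of 8 macrophage markers 4 were lower and 4 not called, and all 8 together summed to 45.7 to 53.3 in clusters against 161 to 189 in islets. The endocrine markers also differed between the islet arrays, at 188 on islet array 1 and 35.8 on islet array 2. These marker levels moved with every group contrast reported here and their part in each result was not tested. In such bulk samples fewer cells of a type and less RNA per cell cannot be told apart.

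**Figure D1:**
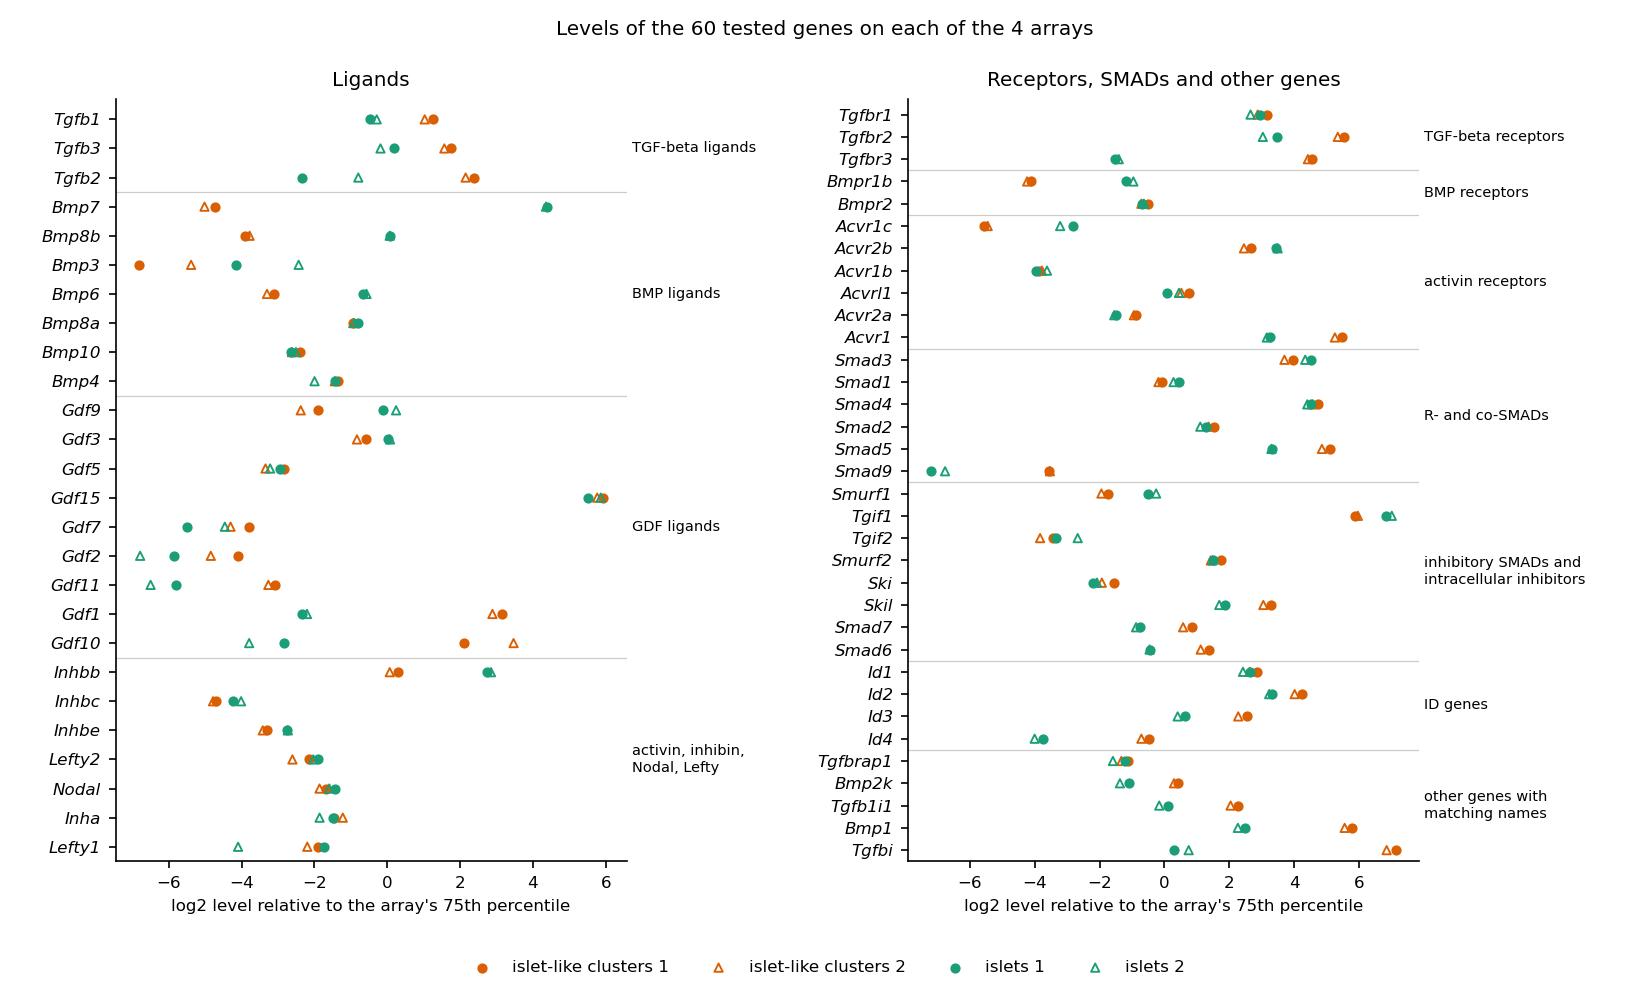
Log2 levels relative to each array's 75th percentile for the 60 tested genes on the 4 arrays, ordered by role; orange marks islet-like clusters, green marks islets, circles replicate 1 and triangles replicate 2. The 3 TGF-beta ligands have both cluster arrays above both islet arrays, and Bmp7 has its cluster arrays at -4.73 and -5.02 against 4.38 and 4.36 in islets.

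All 3 TGF-beta ligands rose in the clusters, while 4 of the 7 tested BMP ligands fell and 0 rose. Of those 4, Bmp7 and Bmp3 were detected only in islets and were tested on that ground. Their direction adds no support to the count. Of all genes, 26.6% were called higher and 28.3% lower, and these shares stand beside the counts of every role below. The 7 tested BMP ligands leave out Bmp2, described below, which was higher in clusters by log2 7.00 with its marked spot missing and 6.71 with it kept. Tgfb1, the ligand most studied for matrix production, stood at 1.26 and 1.03 in the cluster arrays and at -0.48 and -0.29 in the islet arrays. Tgfb3 stood at 1.76 and 1.57 in clusters and at 0.19 and -0.19 in islets. Tgfb2 stood at 2.38 and 2.15 in clusters and at -2.33 and -0.80 in islets. For each of the 3 the groups did not overlap, and Tgfb2 was the ligand whose islet arrays lay far apart. The fold changes were 2.88 for Tgfb1 (log2 1.53, SE 0.24, adjusted p 0.000478), 3.16 for Tgfb3 (log2 1.66, SE 0.25, adjusted p 0.000367) and 14.2 for Tgfb2 (log2 3.83, SE 0.43, adjusted p 5.86e-05). The Tgfb2 log2 fold change was 3.06 without islet array 1 and 4.60 without islet array 2. It was 3.18 with normexp correction and 2.89 as the mean of both probes, the other of which rose by 1.94. The probes lie at chr7:26489877-26489936 (Tgfb1, plus strand), chr12:87397804-87397863 (Tgfb3, minus strand) and chr1:188447534-188447593 (Tgfb2, minus strand) of the mm9 assembly, the build of the array's own annotation; whether a probe lies in coding sequence or a UTR was not determined here.

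Bmp7, a ligand made by epithelia that is known to oppose TGF-beta in fibrosis, showed the largest fall of any tested member. Its level was -4.73 and -5.02 in the cluster arrays, where it was not well above background, and 4.38 and 4.36 in the islet arrays (probe at chr2:172695203-172695262, minus strand). By the fit it was 605-fold lower in clusters (adjusted p 6.42e-09 in limma), which is also its bound, and 106-fold lower with normexp correction (log2 -6.72). Bmp8b stood at -3.90 and -3.78 in clusters and at 0.09 and 0.07 in islets, a 15.1-fold fall (log2 -3.92, SE 0.23, adjusted p 6.23e-07; log2 -2.34 with normexp correction). Its near relative Bmp8a, encoded on the same chromosome, stood at -0.94 and -0.93 in clusters and at -0.81 and -0.91 in islets and was not called (log2 -0.08, 95% confidence interval -0.59 to 0.43). The probes of this gene pair share no run longer than 5 bases. Bmp3, which is unusual in the family for opposing BMP signals in bone, was dim: -6.82 and -5.39 in clusters, not well above background, and -4.16 and -2.43 in islets. Both of its groups were widely spread but did not overlap, and it was at least 3.79-fold lower (adjusted p 0.0026). With normexp correction the Bmp3 fall was 1.58-fold (log2 -0.66), and the call was lost when arrays were scaled over well-detected probes (adjusted p 0.0513). Without cluster array 1 the Bmp3 call was also lost (log2 -2.09, adjusted p 0.101), and the log2 fold change was -3.53 without cluster array 2, -3.67 without islet array 1 and -1.95 without islet array 2. Bmp6, known for its control of hepcidin, stood at -3.12 and -3.30 in clusters and at -0.66 and -0.57 in islets, a 6.04-fold fall (log2 -2.59, SE 0.23, adjusted p 1.18e-05; log2 -1.43 with normexp correction). Bmp4, the ligand most used in mesoderm induction, was -1.36 and -1.44 in clusters and -1.44 and -2.00 in islets. Its groups overlapped and it was not called (log2 0.32, interval -0.27 to 0.91). Bmp10 was likewise not called (log2 0.06, interval -0.47 to 0.58).

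Bmp2, Inhba and Bmpr1a could not be tested with all arrays, because the spot of each on cluster array 1 was marked as non-uniform. All 3 were nonetheless bright in the other cluster array. For Bmp2, the close relative of Bmp4, the processed signals were 17044 (marked spot) and 28043 in clusters and 182 and 142 in islets. For Inhba, the activin A subunit, they were 9514 (marked spot) and 78258 in clusters and 2286 and 997 in islets. For Bmpr1a, the type I receptor for BMP2 and BMP4, they were 1537 (marked spot) and 4050 in clusters and 1141 and 750 in islets. In each gene both cluster signals, the marked one included, were above both islet signals, although for Inhba and Bmpr1a the marked spot was far below the other cluster array. With the marked spot treated as a missing value, so that the fit rests on 1 cluster array and the spread comes from the islet arrays and from limma's pooling over genes, Bmp2 was 128-fold higher in clusters (log2 7.00, SE 0.29, adjusted p 4.01e-07), Inhba 38.1-fold (log2 5.25, SE 0.38, adjusted p 1.13e-05) and Bmpr1a 3.22-fold (log2 1.69, SE 0.30, adjusted p 0.00181), in a fit that called 54.9% of all genes, 26.7% higher and 28.2% lower. With the marked spot kept, Bmp2 (log2 6.71, adjusted p 0.000166) and Inhba (log2 3.80, adjusted p 0.0362) were called higher and Bmpr1a was not (log2 1.06, adjusted p 0.115). The counts of BMP ligands, activin subunits and BMP receptors given elsewhere leave these genes out.

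**Figure D2:**
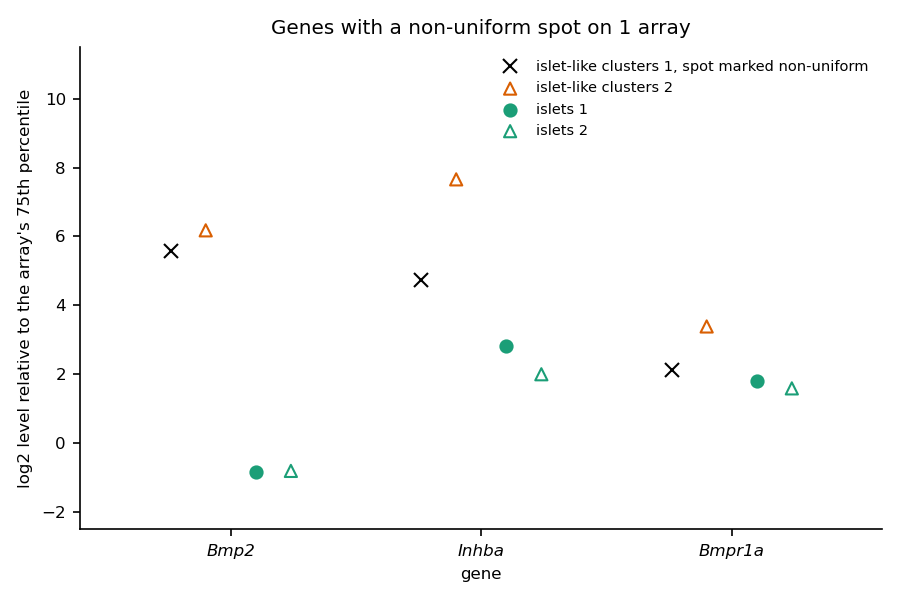
Log2 levels relative to each array's 75th percentile for Bmp2, Inhba and Bmpr1a on the 4 arrays, with the spot marked non-uniform on cluster array 1 drawn as a cross. Cluster array 2 is above both islet arrays for each gene, at 6.18 for Bmp2, 7.66 for Inhba and 3.38 for Bmpr1a.

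Of the 9 tested growth and differentiation factors, 5 were called higher in clusters and 2 lower, against 26.6% and 28.3% of all genes. Several of the 5 were dim in islets. Gdf2, Gdf7 and Gdf11 were detected only in clusters and were tested on that ground, so their direction adds no support to the count. Gdf10, a TGF-beta-like factor also named Bmp3b, stood at 2.11 and 3.47 in clusters and at -2.84 and -3.79 in islets. Gdf1, a partner of Nodal, stood at 3.15 and 2.89 in clusters and at -2.35 and -2.20 in islets. Gdf11, the close relative of myostatin, stood at -3.09 and -3.27 in clusters and, not well above background, at -5.79 and -6.50 in islets. In none of these 3 genes did the groups overlap. Gdf10 rose 68.8-fold (log2 6.10, SE 0.45, adjusted p 3.23e-06), with 6.78 without cluster array 1, 5.42 without cluster array 2 and 4.52 with normexp correction. Gdf1 rose 39.2-fold (log2 5.29, SE 0.24, adjusted p 1.12e-07) and Gdf11 was at least 4.46-fold higher (adjusted p 1.92e-05). With normexp background correction the Gdf11 call was lost, at a log2 fold change of 0.34. Gdf1 shares a transcript with the ceramide synthase gene Cers1, so its reading is uncertain, and its other probe, annotated to a different transcript, gave a log2 fold change of 0.43 and was not called; the mean of its probes was 2.86, and normexp correction gave 4.35. Gdf2, known as BMP9 and the ligand of the endothelial receptor ACVRL1, was at least 1.86-fold higher (adjusted p 0.00188). Gdf7 was 1.90-fold higher by the fit (adjusted p 0.0496), which is also its bound. Both were dim in islets on both arrays, and neither was called higher with normexp correction, where log2 fold changes were -0.02 and -0.03. The Gdf7 call held in only 5 of the 17 alternatives that gave a value. Among the others were scaling to the array median (log2 1.12, adjusted p 0.052 in limma) and the authors' deposited table (log2 0.87, adjusted p 0.121 in limma). Without cluster array 1 the Gdf2 call was lost (log2 1.48, adjusted p 0.0674), and the Gdf7 call was lost without cluster array 1, cluster array 2 or islet array 1 (log2 0.67, 1.18 and 0.41). The Gdf10 probe (chr14:34748161-34748220) and the Gdf2 probe (chr14:34760077-34760136) lie on the plus strand of the same stretch of mm9.

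Gdf9, the oocyte factor, stood at -1.89 and -2.38 in clusters and at -0.11 and 0.24 in islets, with no overlap, and fell 4.59-fold (log2 -2.20, SE 0.27, adjusted p 9.6e-05). Gdf3, a factor of pluripotent cells, stood at -0.58 and -0.83 in clusters and at 0.01 and 0.08 in islets and fell 1.68-fold (log2 -0.75, adjusted p 0.0226). That call was lost without cluster array 2, islet array 1 or islet array 2 (adjusted p 0.104, 0.288 and 0.363). Gdf15, a circulating stress factor, was bright on all arrays, at 5.94 and 5.76 in clusters and 5.50 and 5.86 in islets. Its groups overlapped and it was not called (log2 0.17, interval -0.38 to 0.72). Gdf5 was not called (log2 -0.01, interval -0.61 to 0.59).

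The activin, inhibin, Nodal and Lefty ligands gave 3 lower and 0 higher calls among 7 tested, against 28.3% and 26.6% of all genes. Inhbb, the activin B subunit, stood at 0.30 and 0.07 in clusters and at 2.75 and 2.85 in islets. It fell 6.12-fold (log2 -2.61, SE 0.23, adjusted p 1.21e-05), in the direction opposite to the activin A subunit gene Inhba on its unmarked cluster array. Inhbc stood at -4.71 and -4.78 in clusters and at -4.23 and -4.01 in islets, and Inhbe at -3.30 and -3.42 against -2.75 and -2.73. Only 1 cluster array had Inhbc well above background. With normexp correction the calls of both Inhbc (log2 -0.26) and Inhbe (log2 -0.36) were lost. Over the alternatives that gave a value, the call was lost in 10 of 17 for Inhbc and in 11 of 18 for Inhbe. These neighbouring genes (chr10:126793865-126793924 and chr10:126786719-126786778, minus strand), known mainly from liver, each fell 1.54-fold (log2 -0.62, adjusted p 0.0454 and 0.0425). Each of the 2 calls was lost when any 1 of the 4 arrays was left out, with adjusted p from 0.0826 to 0.55. Inha, the inhibin alpha subunit, had log2 fold change 0.33 (interval -0.23 to 0.89), Nodal -0.26 (-0.79 to 0.26) and Lefty2 -0.42 (-0.98 to 0.15), all without a call. Lefty1, a Nodal antagonist, was -1.90 and -2.20 in clusters and -1.74 and -4.10 in islets. Its islet arrays lay on either side of the clusters, and its log2 fold change of 0.87 (interval -0.49 to 2.23) became 2.05 (adjusted p 0.00081) without islet array 1 and -0.31 without islet array 2. The 4 genes too dim to test were Bmp5, Bmp15, Gdf6 and Amh, the last the hormone of Sertoli and granulosa cells. Of these, Gdf6 was well above background on 1 array and the others on 0.

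**Figure D3:**
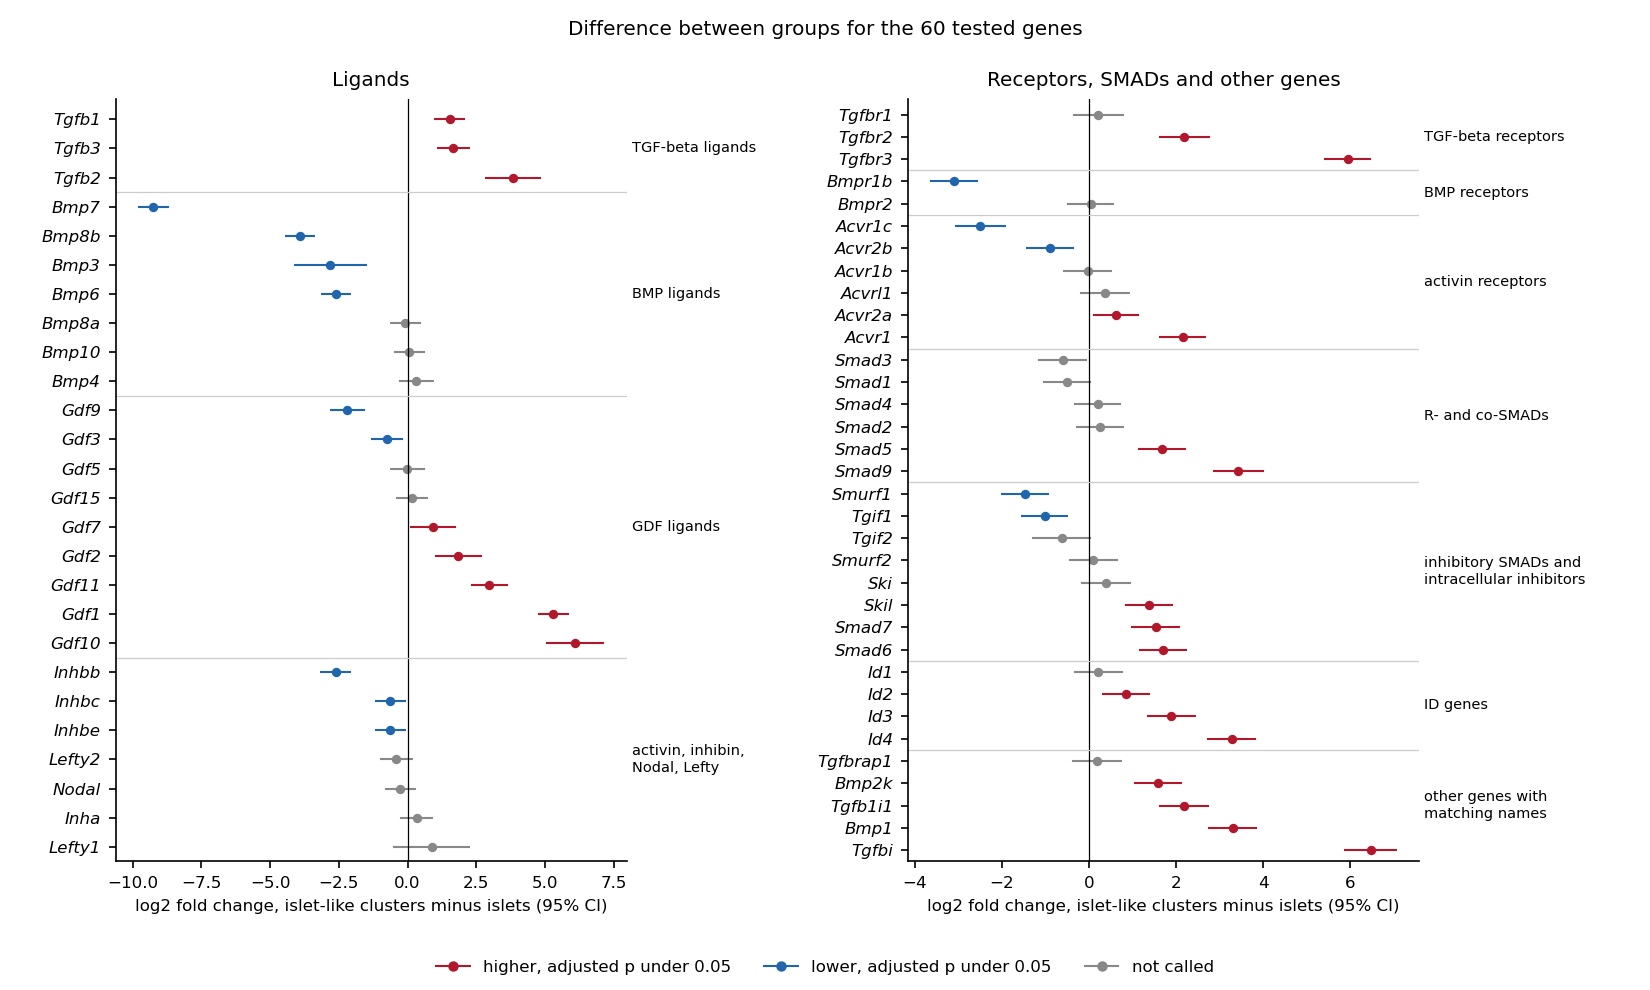
Log2 fold changes (islet-like clusters minus islets) with 95% confidence intervals from limma for the 60 tested genes, ordered by role; red marks higher calls, blue lower calls and grey no call. TGF-beta ligands lie to the right of 0, and the 4 BMP ligands called lower lie to the left with Bmp7 at -9.24. All 4 ID genes lie to the right, 3 of them called higher.

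Of the 3 TGF-beta receptors 2 rose and 0 fell, and of the 2 BMP receptors tested 1 fell. Of all genes, 26.6% were called higher and 28.3% lower in the same fit. Receptors were grouped by gene symbol and not by the ligands they bind. Acvr1, which rose, and Acvrl1, named above as the receptor of Gdf2, are therefore counted with the activin receptors. These counts are no contrast of TGF-beta with BMP receptors. Tgfbr3, or betaglycan, which presents TGF-beta2 and inhibin, stood at 4.54 and 4.42 in clusters and at -1.52 and -1.41 in islets (probe at chr5:107535818-107535877, minus strand). It rose 61.7-fold (log2 5.95, SE 0.23, adjusted p 4.63e-08), or 40.4-fold with normexp correction. Tgfbr2, the type II receptor that binds TGF-beta, stood at 5.53 and 5.35 in clusters and at 3.47 and 3.03 in islets and rose 4.56-fold (log2 2.19, SE 0.25, adjusted p 6.8e-05). A second, dimmer Tgfbr2 probe gave -0.44 and -0.77 in clusters and 0.42 and 0.54 in islets and was called lower (log2 -1.09, adjusted p 0.00609). The mean of both probes was not called (log2 0.55, adjusted p 0.0728), so the direction of Tgfbr2 depends on the probe. Tgfbr1, the type I partner, stood at 3.16 and 2.88 in clusters and at 2.95 and 2.66 in islets, which overlapped (log2 0.22, interval -0.34 to 0.77).

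Bmpr1b, a type I BMP receptor known from cartilage and ovary, stood at -4.11 and -4.23 in clusters and at -1.19 and -0.96 in islets. It fell 8.57-fold (log2 -3.10, SE 0.23, adjusted p 3.69e-06), while its other probe fell by 1.08 on the log2 scale and the mean of both by 2.09. With normexp correction the fall was 2.88-fold (log2 -1.52). Bmpr2, the type II receptor of most BMPs, was -0.52 and -0.71 in clusters and -0.68 and -0.63 in islets. These values overlapped and it was not called (log2 0.04, interval -0.48 to 0.56).

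The activin receptor group, taken by symbol, split, with 2 higher, 2 lower and 2 not called. Of all genes, 26.6% were called higher and 28.3% lower. Of the 2 lower, Acvr1c was detected only in islets and was tested on that ground, so its direction adds no support to the count. Acvr1, the type I receptor known as ALK2, stood at 5.46 and 5.26 in clusters and at 3.26 and 3.16 in islets and rose 4.45-fold (log2 2.15, SE 0.23, adjusted p 4.43e-05). All 3 of its probes rose. Acvr1c, the type I receptor ALK7 of islets and fat, stood at -5.56 and -5.45 in clusters, not well above background, and at -2.81 and -3.22 in islets. It was at least 4.61-fold lower (adjusted p 2.44e-05), with the groups apart, and 1.71-fold lower with normexp correction (log2 -0.77). Acvr2a, an activin type II receptor, stood at -0.87 and -0.94 against -1.50 and -1.55 and was called higher (log2 0.62, adjusted p 0.0436), while Acvr2b, its paralogue, stood at 2.67 and 2.45 against 3.43 and 3.49 and was called lower (log2 -0.90, adjusted p 0.00897). The Acvr2a call was lost when any of the 4 arrays was left out (adjusted p from 0.0916 to 0.477). The Acvr2b call was lost without cluster array 2, islet array 1 or islet array 2 (adjusted p 0.0591, 0.189 and 0.245). Acvrl1, the endothelial receptor ALK1, was 0.75 and 0.52 in clusters and 0.08 and 0.45 in islets and was not called (log2 0.37, interval -0.19 to 0.93), while the 10 endothelial markers were all lower. Acvr1b (ALK4) was not called (log2 -0.03, interval -0.57 to 0.51) and was read from its dimmer probe, because the brighter had a marked spot on cluster array 1.

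Of the 6 SMADs that carry the signal 4 were not called, those of the TGF-beta branch among them. Smad2 was 1.52 and 1.36 in clusters against 1.28 and 1.11 in islets (log2 0.25, interval -0.28 to 0.77). Smad4, the common partner, was 4.74 and 4.57 against 4.51 and 4.41 (log2 0.20, interval -0.32 to 0.72). Smad1 was -0.09 and -0.18 against 0.46 and 0.28 (log2 -0.51, interval -1.03 to 0.01). In each of these 3 genes the groups did not overlap but the difference was not called. Smad1 was called lower in 5 of the 18 alternative treatments, and its second probe was called lower (adjusted p 0.00888). Smad3 was 3.97 and 3.70 in clusters and 4.53 and 4.34 in islets (log2 -0.60, adjusted p 0.0587), just above the threshold. It was called lower in 8 of the 18 alternative treatments, and its second probe was called lower (log2 -2.23, adjusted p 0.000271).

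Smad5 and Smad9, the BMP-branch SMADs other than Smad1, were called higher, though Smad9 was detected only in clusters and was tested on that ground. Smad9 was -3.56 and -3.53 in clusters and -7.20 and -6.77 in islets, where it was not well above background, and was at least 3.54-fold higher (adjusted p 2.69e-06). With normexp correction its log2 fold change was 0.40 and the call was lost. Smad5 was 5.10 and 4.86 in clusters and 3.30 and 3.30 in islets and rose 3.20-fold (log2 1.68, SE 0.23, adjusted p 0.000237). A much dimmer Smad5 probe was called lower (log2 -0.94, adjusted p 0.0179), and the mean of both was not called (log2 0.37, adjusted p 0.197).

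The inhibitory SMADs, which are targets of the pathway and limit it, both rose. Smad6, which restrains BMP signals, stood at 1.39 and 1.12 in clusters and at -0.45 and -0.46 in islets, a 3.26-fold rise (log2 1.71, SE 0.23, adjusted p 0.000222). Its promoter window is the one shown with GTCTAGAC. Smad7, which restrains both branches, stood at 0.85 and 0.58 in clusters and at -0.76 and -0.87 in islets, a 2.89-fold rise (log2 1.53, SE 0.24, adjusted p 0.00047). Skil, the SMAD corepressor SnoN, stood at 3.27 and 3.05 against 1.88 and 1.69 (log2 1.37, adjusted p 0.000921). Its second probe moved the opposite way, at -0.86 and -1.08 in clusters against 0.74 and 0.53 in islets (log2 -1.60, adjusted p 0.000752), and the mean of both was -0.11. Without islet array 2 the Skil call was lost (adjusted p 0.0581). The ubiquitin ligase gene Smurf1 stood at -1.75 and -1.94 in clusters and at -0.50 and -0.26 in islets and fell 2.77-fold (log2 -1.47, SE 0.24, adjusted p 0.000624). Tgif1, a homeodomain corepressor, stood at 5.86 and 5.97 against 6.85 and 7.01 and fell 2.02-fold (log2 -1.02, adjusted p 0.00462), a call lost without islet array 1 or islet array 2 (adjusted p 0.109 and 0.202). Smurf2 (log2 0.10, interval -0.43 to 0.63), Ski (0.39, -0.15 to 0.94) and Tgif2 (-0.63, -1.28 to 0.03) were not called. The other Smurf2 probes gave -1.11, called lower (adjusted p 0.00386 in limma), and -0.40, not called. The other kept Tgif2 probe gave 0.24 and was not called.

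The ID genes encode helix-loop-helix proteins that block differentiation factors, and 3 of the 4 rose, against 26.6% of all genes. Id4 stood at -0.48 and -0.71 in clusters and at -3.75 and -4.00 in islets and rose 9.72-fold (log2 3.28, SE 0.24, adjusted p 2.91e-06), or 3.04-fold with normexp correction. Id3 stood at 2.54 and 2.28 in clusters and at 0.63 and 0.41 in islets and rose 3.71-fold (log2 1.89, SE 0.24, adjusted p 0.000132). Id2 stood at 4.23 and 4.02 in clusters and at 3.32 and 3.23 in islets and rose 1.80-fold (log2 0.85, SE 0.23, adjusted p 0.0122). The groups did not overlap for these 3, though the Id2 call was lost without cluster array 1, islet array 1 or islet array 2 (adjusted p 0.0706, 0.213 and 0.292). Id1, often the most responsive of the family to BMP, was 2.85 and 2.63 in clusters and 2.64 and 2.42 in islets. Its groups overlapped and it was not called (log2 0.21, interval -0.32 to 0.75).

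The name rule also caught 5 genes that are not ligands, receptors or SMADs, of which 4 rose, against 26.6% of all genes. Tgfbi, a secreted matrix protein named for its induction by TGF-beta, stood at 7.13 and 6.85 in clusters and at 0.31 and 0.75 in islets (probe at chr13:56740460-56740519, plus strand). It rose 88.4-fold, the largest rise of any tested member (log2 6.47, SE 0.26, adjusted p 5.67e-08). Bmp1, which despite its name is a procollagen C-proteinase, stood at 5.80 and 5.56 in clusters and at 2.48 and 2.26 in islets and rose 9.88-fold (log2 3.30, adjusted p 2.69e-06). Of its other 2 probes 1 rose (log2 2.09) and 1 was not called (0.85, adjusted p 0.0543), and the mean of the 3 was 2.08. Tgfb1i1, the focal adhesion protein Hic-5, stood at 2.28 and 2.04 in clusters and at 0.12 and -0.16 in islets and rose 4.53-fold (log2 2.18, adjusted p 5.41e-05). Bmp2k, a kinase, stood at 0.41 and 0.29 against -1.10 and -1.37 and rose 3.00-fold (log2 1.59, adjusted p 0.000375), against log2 0.91 with quantile normalization and 0.81 in the authors' deposited table. Tgfbrap1 was not called (log2 0.18, interval -0.37 to 0.74). The mesenchymal markers, 11 of 11 higher, moved with these genes and their part was not tested.

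Several probes were kept for 18 members, and they did not always give the same call. In 3 genes, Tgfbr2, Smad5 and Skil, probes were called in opposite directions, and in 5 others (Bmp1, Gdf1, Smad1, Smad3 and Smurf2) some probes were called and some were not, which makes 8 genes in all. Where each probe was tested by itself, 53.2% of all probes were called, 26.4% higher and 26.8% lower.

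**Figure D4:**
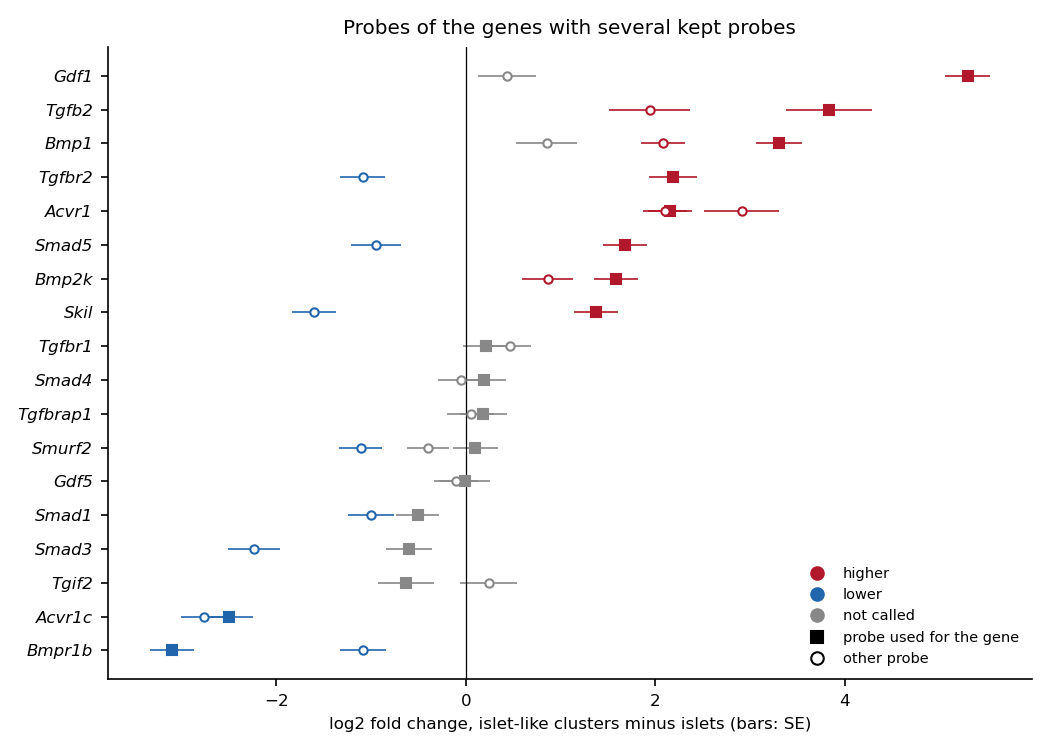
Log2 fold changes with standard errors for every kept probe of the 18 genes with several kept probes; filled squares are the probes used for the gene, open circles the others, coloured by the call of the probe. Tgfbr2, Smad5 and Skil each have a probe to either side of 0, while all probes of Acvr1 lie to the right and those of Bmpr1b and Acvr1c to the left.

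Other genes of the pathway, listed by role and not caught by the name rule, numbered 68. Of the 57 that could be tested, 30 were higher, 12 lower and 15 not called (median log2 fold change 0.78, against -0.10 for all genes). Beside these counts and those of each list below, the same test called 26.6% of all genes higher and 28.3% lower. The lists were chosen with earlier results of these data known. Genes of TGF-beta latency and activation gave 10 higher and 3 lower calls among 13. Pcsk5, a proprotein convertase, rose by a log2 fold change of 7.16, Ltbp2, a latent TGF-beta binding protein family member, by 5.61 and the microfibril gene Fbn1 by 5.42. The 3 lower were the integrin subunit gene Itgb6, whose integrin activates latent TGF-beta on epithelia (at least 159-fold), the convertase gene Pcsk6 (at least 197-fold), and Lrrc33, which holds latent TGF-beta on myeloid cells (log2 -4.71; -4.05 without cluster array 1 and -5.37 without cluster array 2), which only 1 cluster array detected. With normexp correction the log2 fold changes were -4.60 for Itgb6 and -4.73 for Pcsk6, below both bounds, and -2.52 for Lrrc33, 5.96 for Pcsk5 and 4.68 for Fbn1. The mean of all Itgb6 probes was -6.98. The 6 epithelial markers and 4 of 8 macrophage markers were lower in the same samples, and their part was not tested.

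Of 8 co-receptors and ligand-binding proteoglycans tested, 5 were higher and 0 lower, led by Dcn (log2 6.20), Cd109 (4.51) and Bgn (3.75); Dcn is also on the mesenchymal marker list, and Cd109, which only 1 islet array detected, was 2.14 with normexp correction. Of 13 secreted and membrane antagonists, 8 were higher and 2 lower. Grem1, a BMP antagonist, was 6.25 and 6.04 in clusters and not well above background in islets, at least 2935-fold higher (adjusted p from limma 3.32e-09), and Bmper (log2 5.36) and Fst, the activin-binding follistatin (5.19), followed. The Fst log2 fold change was 4.25 without islet array 1 and 6.14 without islet array 2, and its call was lost with a variance trend and robust fit (adjusted p 0.0519 in limma). With normexp correction Grem1 was 337-fold higher (log2 8.39), below its bound, and Bmper and Fst were 4.70 and 4.50. Sostdc1 (log2 -2.17, detected on only 1 cluster array) and Crim1 (-1.71) were lower (-0.91 and -0.96 with normexp correction), the Crim1 call being lost without cluster array 1 (-0.88) and in 7 other alternatives. Intracellular modulators split 3 higher, 3 lower and 5 not called. Dab2 (log2 5.18), Pmepa1, a TGF-beta target that limits SMAD signalling (3.61), and Trim33 (1.34) were higher, and Fkbp1a (-1.35), Zfyve9 (-0.74) and Nedd4l (-0.70) were lower. The Zfyve9 and Nedd4l calls were lost when any of the 4 arrays was left out, the Fkbp1a call without islet array 2 or with the mean of its probes (-0.47) and the Trim33 call without islet array 1. The mean of all Nedd4l probes was higher (0.94, adjusted p 0.0164), and Dab2 was 4.31 with normexp correction.

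Genes listed as transcriptional targets split 5 higher, 4 lower and 4 not called among 13. Snai2, a transcription factor of mesenchymal transition (log2 8.04), Ltbp2 (5.61, counted also above) and the collagen gene Col1a1 (3.94, also a mesenchymal marker) led the higher side. Ctgf, a matricellular growth factor that TGF-beta and YAP both induce, was -3.13 and -3.34 in clusters and 3.51 and 2.62 in islets, a log2 fold change of -6.30 (SE 0.31). Hey1 (-2.79), a Notch and BMP target, and Myc (-2.06), which TGF-beta represses in epithelial cells, were also lower. With normexp correction Snai2 was 6.07, Ctgf -5.01 and Hey1 -1.72. The listed targets did not move in a single direction. The list mixes induced genes such as Ctgf with Myc, which is repressed, so its split is no measure of pathway output.

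**Figure D5:**
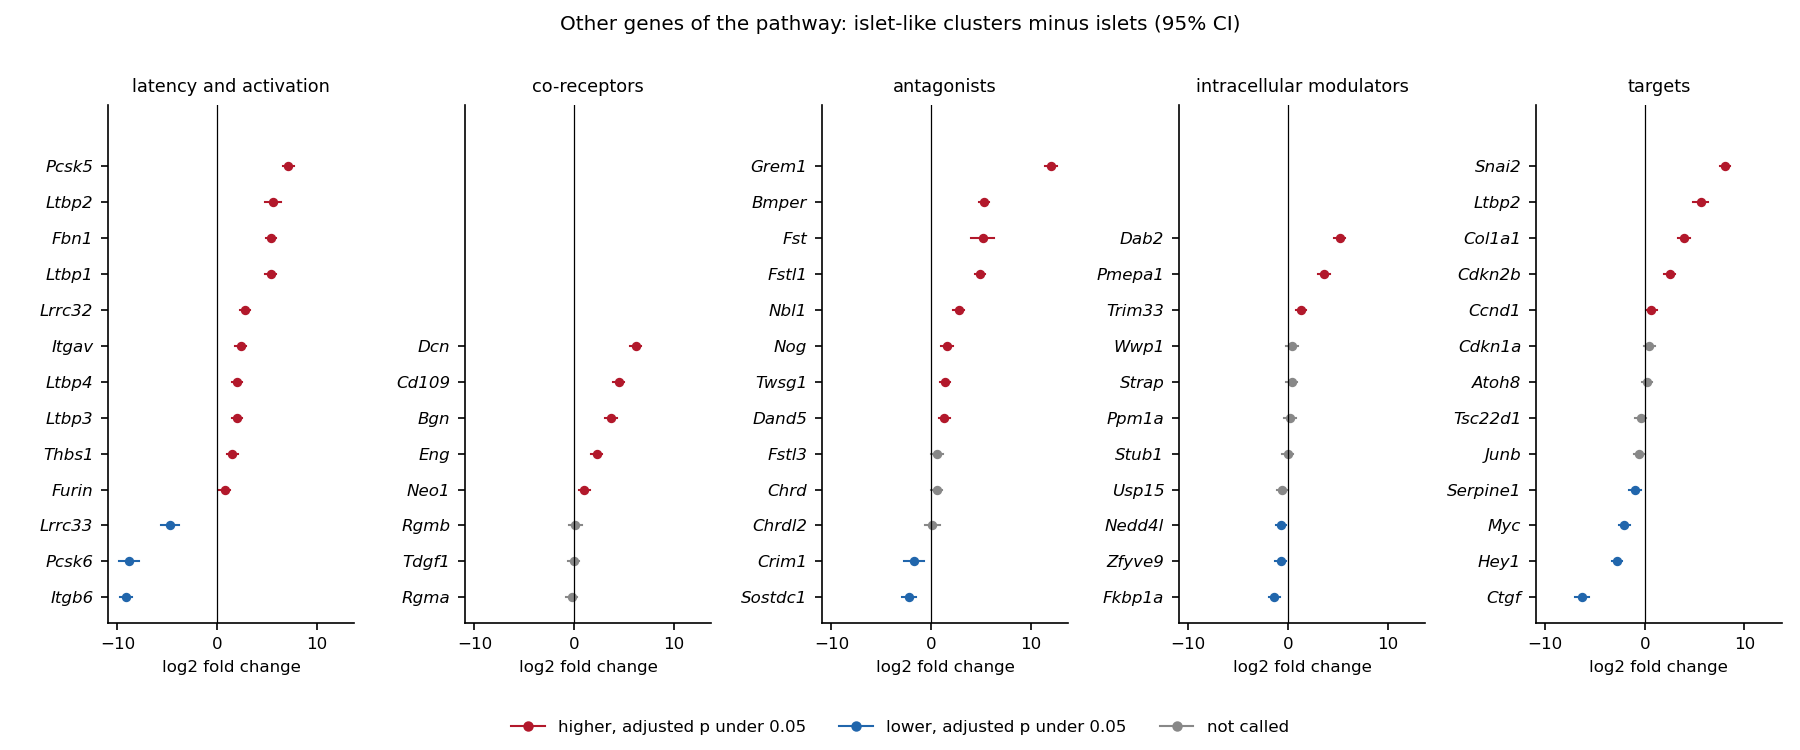
Log2 fold changes (islet-like clusters minus islets) with 95% confidence intervals for the tested genes of the 5 lists of other pathway genes; red marks higher calls, blue lower calls and grey no call. Latency genes have 10 of 13 to the right of 0, antagonists have Grem1 at 12.07, and targets have Ctgf at -6.30 and Snai2 at 8.04.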

How the data were processed

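Spot intensity (linear, background-subtracted) was deposited as written by Agilent Feature Extraction 11.5.1.1, per the file headers, and the authors' deposited value table holds log2 values of the same arrays. Per the labels, 500 ng of total RNA was copied from an oligo-dT primer and labelled with Cy3, so probes report polyadenylated RNA. The value table followed the scanner values closely, with column medians of -3.61, -3.70, -3.50 and -3.37; how it was centred is not given in the sources used here, and it served only as an alternative.

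From the scanner files, log2 of the processed signal was taken minus each array's 75th percentile over non-control probes. Control spots and spots marked as non-uniform or as population outliers were left out, and spots of 1 probe were averaged. The 490 probes with no value on an array were dropped. Probes had to be well above background on the 2 arrays of either group, and 34973 were, and each of the 24596 genes was read from its brightest probe over all 4 arrays. Clusters were compared with islets in limma 3.58.1 (R 4.3.3, lmFit and eBayes, 2 residual degrees of freedom), 2-sided, with Benjamini-Hochberg adjustment. The script was tested on simulated data. Alternatives were other background, scaling, filter, probe and variance settings, the value table, a replicate block and leaving out each array. Leaving out population outliers, treating marked spots as missing values and testing each probe by itself were chosen after the data were seen. Only 4 arrays limit the precision. Same-numbered arrays did not deviate together (correlation -0.02).

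Gene symbols are those of the array design; 89 of the 99 probes matched an accession in the RefSeq gene table, with 0 changes of symbol. Values in every array are given for the central members and for up to 3 called genes of each role in each direction, and up to 3 of each list for other pathway genes. A gene of the antagonist list is not reported here and was left out of that list's counts. The members and all gene lists, the marker lists too, were chosen with earlier results of these data known. Of the marker lists not described elsewhere, duct gave 0 higher and 6 lower of 6, lymphocyte 0 and 1 of 3, erythroid 0 and 3 of 3, Schwann and neural 2 and 2 of 6, and smooth muscle 2 and 2 of 6.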

Additional observations from a re-analysis of the deposited data

How the results depend on the processing

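Of the 38 called members, 23 kept direction and call in each of the 18 alternatives that gave a value, 15 lost the call in at least 1, and 3 of those 15 turned direction. Over all member results and alternatives, 963 of 1072 kept direction and side of the threshold, 61 lost a call, 19 gained one and 29 turned direction. The cause was not tested. With normexp correction Gdf2 was -0.0188, Gdf7 -0.0261 and Bmp10 -0.0857. With the mean of all probes Skil was -0.11, Smurf2 -0.47 and Nedd4l 0.94. Scaling to the array median moved the median of all genes by 0.20 and scaling over well-detected probes moved it by -0.19. Of the genes called, 48.5% were higher with the 75th percentile, 58.1% under the former and 40.3% under the latter; members went from 24 higher and 14 lower to 25 and 12, and to 23 and 17. Under the former Acvr1b was 0.17, Bmp8a 0.12 and Gdf5 0.19, and the members' median was 0.43. Under the latter Bmp10 was -0.13, Bmpr2 -0.15, Gdf15 -0.0238, Smurf2 -0.0907 and Tgfbrap1 -0.0057. With quantile normalization Acvr1b was 0.17, Bmp8a 0.0034 and Gdf5 0.17. Bmpr2 was -0.0079 with non-uniform spots kept and -0.005 in the authors' deposited table, and Acvr1b was 0.10 with marked spots as missing values. Requiring signal on all arrays left 52 members tested and 9 called lower. Bmp7, Bmp3, Acvr1c and Inhbc, lower in the main fit, were then not tested.

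Leaving out 1 array gave 20 to 22 members called higher, 9 to 11 called lower, a member median of 0.14 to 0.33 and 7655 to 10127 genes called, fewest without islet array 2; the lone array left in a group was assumed to vary like the other group. Uncalled members that turned direction then ranged from -0.0506 to 0.17 (Bmp10), -0.20 to 0.14 (Acvr1b), -0.27 to 0.25 (Gdf5), -0.0551 to 0.14 (Bmpr2), -0.013 to 0.35 (Gdf15), -0.0547 to 0.25 (Smurf2) and -0.31 to 2.05 (Lefty1). A fit with the replicate number as a block called 11290 genes, 22 members higher and 11 lower; the labels do not pair the samples and same-numbered arrays correlated at -0.02 in their deviations. Dim signals limit Bmp7, Gdf2, Gdf7, Gdf11, Smad9, Bmp3 and Acvr1c, each not well above background in 1 group. Normexp correction, missing-value treatment of marked spots and single-probe tests call 11661, 13625 and 18591 features.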
